A study of Mus musculus with 14 samples.

Results

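The genes of oxidative phosphorylation were read on 14 Affymetrix MOE430A arrays of mouse hematopoietic stem cells (HSC) and whole bone marrow (WBM). The members were chosen by name, as the genes with a single symbol that begins with Nduf, Uqcr, Atp5, Cox4, Cox5, Cox6, Cox7 or Cox8, together with Sdha, Sdhb, Sdhc, Sdhd, Cycs and Cyc1. This gave 86 of 12393 genes with a single symbol, on 160 of 22626 probe sets, and a gene with several probe sets was read on the one whose mean across the 8 wild-type (WT) HSC arrays was highest. Complex I held 38 of the genes (6 core subunits, 27 accessory subunits and 5 assembly factors), complex II 4, complex III 9, cytochrome c 1, complex IV 17 and complex V 17. Ndufa4 was placed in complex IV, of which its protein is now known to be a subunit.

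Mitochondria make ATP by passing electrons from NADH (complex I) and succinate (complex II) through complex III and cytochrome c to oxygen at complex IV, and the proton gradient built on the way drives ATP synthase, complex V. The genes here are encoded in the nucleus, whereas some core subunits are encoded in mitochondrial DNA. HSC are known for low use of oxidative phosphorylation at rest, and they lean more on glycolysis than their dividing progeny do.

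HSC were side population cells, which pump out the Hoechst dye, that were also c-Kit+, Sca-1+ and lineage-. WT HSC came from male C57Bl/6 mice of 2, 6, 12 and 21 mo, WT WBM from mice of 2 mo, and the other HSC from 12-mo-old p53+/m mice, which carry a truncated p53 allele, and p53+/- mice, which have lost one allele, both with C57Bl/6 as the labelled strain. The authors give the p53 mice as back-crossed to C57Bl/6 for 4 or more generations. Genotype and any strain difference that remained therefore cannot be told apart. Each of the 7 groups had 2 arrays, A and B, and an HSC array held RNA pooled from several mice and amplified in a pair of rounds of in vitro transcription, so p-values measure the spread between pools. A label field on strain states 2 mo on all samples, and the ages used here are those of the titles. Levels are the authors' GC-RMA values on the log2 scale, on which a difference of 1 is 2-fold, and are compared between arrays for 1 gene and never between genes. WBM is a mixture, in which fewer cells of a type and less RNA per cell cannot be told apart. The 10 neutrophil markers averaged 12.7 and 12.8 on the WBM arrays and 3.76 to 7.05 on the HSC arrays, and the 7 erythroid markers 10.2 and 10.1 against 2.30 to 2.43, so the HSC arrays carried little signal of red cell precursors. Of the 8 HSC markers, 4 were higher in HSC than in WBM (Procr, Meis1, Hlf and Tek), Gfi1b was lower, and Kit, Slamf1 and Mecom did not pass.

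The 12 mo arrays A and B stood apart from each other in these genes. They differed by 2-fold or more in 43 of the 86 genes (50%), 29 of them lower on A and 14 higher, whereas this held for 17.0% of all 12393 genes and 29.2% of the 6788 genes at 5 or above on 2 of 14 arrays. In the other 6 groups, 0 to 6 of the 86 genes differed that much between A and B. Across the 86 genes, the A minus B difference at 12 mo had a Pearson correlation of 0.864 and a Spearman correlation of 0.903 with the difference of the 21 mo and 2 mo means, with the same sign in 80 genes. Over the 6788 genes the values were 0.653 and 0.663. Genes of one array share its RNA, so these are descriptions of 2 arrays. The 5′ control probe set for 18S ribosomal RNA read 4.66 on 12 mo A and 9.68 on 12 mo B, 10.91 and 10.88 at 2 mo, 11.19 and 8.28 at 6 mo, and 4.84 and 5.44 at 21 mo. It read 5.32 and 5.14 in WBM, 8.92 and 7.96 in p53+/- HSC, and 5.71 and 7.18 in p53+/m HSC, so by this control A was the lower of the pair. The 3′ minus 5′ difference of the control probe sets, which grows as RNA is shortened, set B apart instead: for b-Actin it was 6.27 on 12 mo B, 3.34 on 12 mo A and 2.73 to 4.65 on the 13 arrays other than B, and for Gapdh 5.42, 4.07 and 3.06 to 4.59. The relation of these controls to the genes was not tested. Call counts and medians with age and between genotypes are also given with a 12 mo array left out, whereas the values of single genes and of groups of subunits come from the fits with both.

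**Figure D1:**
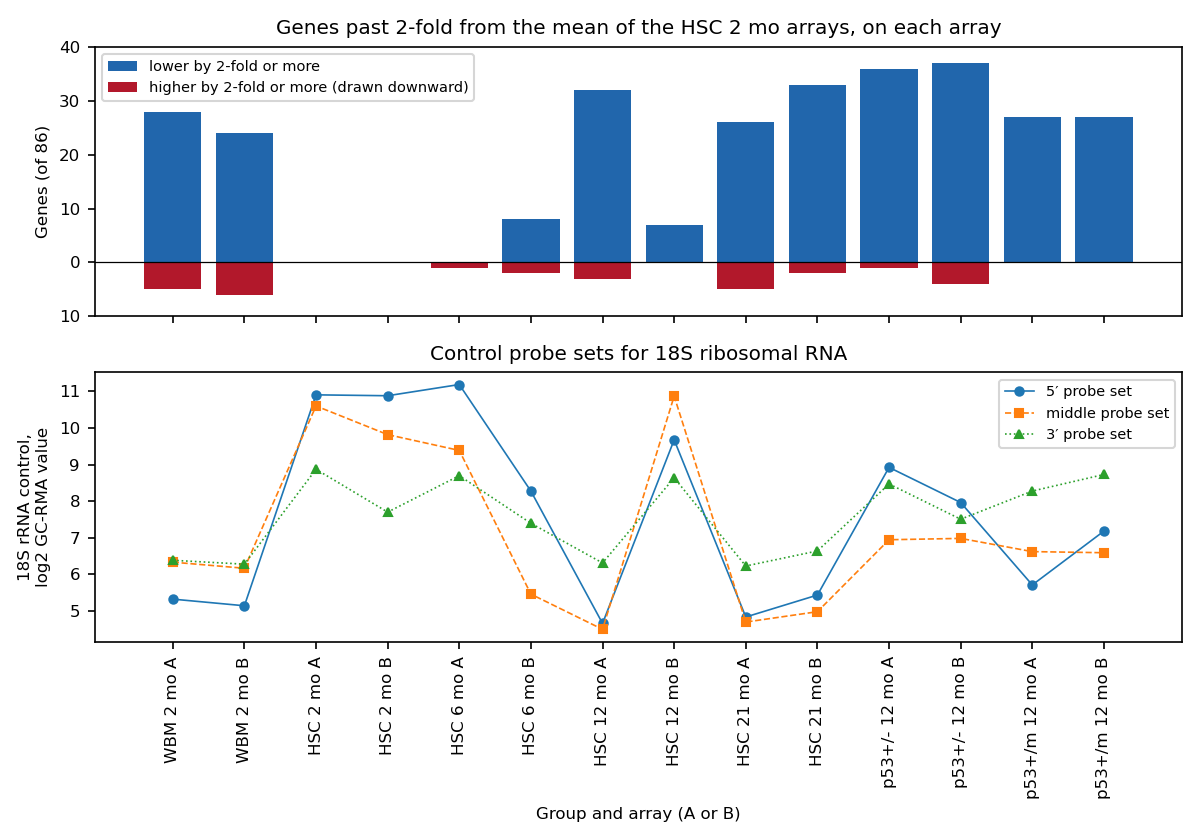
The upper panel counts, on each of the 14 arrays, the genes of the 86 that lay 2-fold or more below (blue bars, upward) or above (red bars, drawn downward) their mean on the 2 mo HSC arrays, and the lower panel gives 3 probe sets that target 18S ribosomal RNA on the same arrays as log2 values. The count below was 0 on both 2 mo arrays and 6 mo A, 32 on 12 mo A against 7 on 12 mo B, 26 and 33 at 21 mo, and 36 and 37 in p53+/- HSC.

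The comparison of 21-mo-old with 2-mo-old HSC asks how these genes behave as stem cells age. By limma, 0 of the 86 genes rose and 3 fell: Ndufs8 and Ndufa8 of complex I and Cyc1 of complex III. Over all genes tested, 1.45% rose and 2.03% fell, so the share that fell (3 of 86) was near the background. A gene rose or fell when limma, with age and its square as terms and the 8 WT HSC arrays as data, gave a Benjamini-Hochberg adjusted p under 0.05 over 22626 probe sets and a fitted difference of at least 2-fold. Below that threshold most of the genes leaned one way. The fitted difference was negative in 61 of 86 genes with a median of -0.34, against 67.3% of all genes with a median of -0.02, and among genes at 5 or above on 2 arrays it was negative in 55 of 77 with a median of -0.43 against 51.6%. Both 21 mo arrays lay below both 2 mo arrays in 52 genes (49.4% of all genes) and above them in 16 (21.1%). Among the 77 they lay below in 46 (40.1%) and above in 15 (36%). At an unadjusted p of at most 0.05 with 2-fold, 22 genes were lower (7.72% of all genes) and 1 was higher (6.68%). Of the 77 genes, 20 were lower and 1 was higher by that rule, against 918 and 803 of 6788. By the adjusted threshold, 0 of the 77 rose and 3 fell, against 2.52% and 3.57%. The difference was 2-fold or more downward in 28 genes and upward in 3. The median was -0.31 without 12 mo A, -0.41 without 12 mo B and -0.43 without both.

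Ndufs8 encodes an iron-sulfur core subunit of complex I and lies at chr19:3908863-3912774 (GRCm38.p6, from the RefSeq annotation). It read 11.60 and 11.74 at 2 mo, 11.86 and 11.16 at 6 mo, 9.40 and 11.07 at 12 mo, and 8.97 and 8.69 at 21 mo. The 21 mo arrays and 12 mo A were the low ones, and 12 mo B lay just under the 6 mo arrays. The fitted difference was -2.98 (SE 0.54, 7.91-fold, adjusted p = 0.047 by limma). Its other 5 probe sets gave -0.54 to -3.84 and none of them passed the test.

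Ndufa8, an accessory subunit of complex I on the side of the intermembrane space, lies at chr2:36036324-36049338. It read 10.20 and 10.25 at 2 mo, 9.86 and 9.94 at 6 mo, 8.20 and 9.23 at 12 mo, and 8.42 and 7.87 at 21 mo. The groups did not overlap from 6 mo to 12 mo, and 12 mo A lay between the 21 mo arrays. It fell by 2.22 on the log2 scale (SE 0.36, adjusted p = 0.039 by limma).

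Cyc1 encodes the heme-bearing cytochrome c1 of complex III, which hands electrons to cytochrome c, and lies at chr15:76343513-76346260. It read 11.87 and 12.28 at 2 mo, 11.53 and 11.81 at 6 mo, 10.49 and 11.13 at 12 mo, and 10.53 and 10.28 at 21 mo. All arrays of 12 and 21 mo lay below all arrays of 2 and 6 mo. It fell by 1.74 on the log2 scale (SE 0.25, adjusted p = 0.033 by limma).

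The count of 3 depended on single arrays. With any of the 2, 6 or 21 mo arrays left out, 0 genes fell. Without 12 mo A, 8 fell (3.56% of all genes): the same 3 with Ndufs7, Sdhb, Cox4i1, Atp5g1 and Atp5j2. Without 12 mo B, 24 fell (5.89% of all genes), and without both 12 mo arrays, 21 fell (5.54%), each time with the 3 among them. A test restricted to probe sets at 5 or above on 2 arrays called 15 of the 76 members that passed it lower (11.4% of the genes left). The fitted difference of these 3 genes was negative in every fit run.

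The other core subunits of complex I varied in size and direction. Ndufs7, which carries the last iron-sulfur cluster before ubiquinone, read 11.59 and 11.52 at 2 mo, 10.97 and 10.95 at 6 mo, 10.42 and 11.16 at 12 mo, and 10.24 and 10.10 at 21 mo, a fitted difference of -1.28 (SE 0.24, adjusted p = 0.0508 by limma), just outside the threshold. Ndufv2 had a fitted difference of -0.90 (SE 0.42) and Ndufv1, which binds NADH, one of -0.43 (SE 0.22). Ndufs3 stood at 9.87 and 9.95 at 2 mo and 10.27 and 9.78 at 21 mo, arrays that overlapped. Ndufs1 alone of the 6 had a positive difference, 0.65 (SE 0.40). None of these 5 passed the test.

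Of the 27 accessory subunits of complex I, 20 had a negative difference, with a median of -0.79, and in 20 both 21 mo arrays lay below both 2 mo arrays, as in 49.4% of all genes and 40.1% of those at 5 or above on 2 arrays. The 5 assembly factors, which help to build complex I and are not part of it, ran the other way in 4, with a median of 0.50. Ndufaf7, a methyltransferase of that group, had the most positive difference of the 86 genes, 1.40 (SE 0.42, adjusted p = 0.129 by limma). It read 3.52 and 2.61 at 2 mo, 3.67 and 3.68 at 6 mo, 4.32 and 3.52 at 12 mo, and 4.95 and 4.16 at 21 mo, and reached 5 only on the WBM arrays, so these are low signals.

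Complex II, which oxidizes succinate and also belongs to the TCA cycle, was split between its subunits. Sdhb, the iron-sulfur subunit, read 10.49 and 10.44 at 2 mo, 10.60 and 10.03 at 6 mo, 7.51 and 9.77 at 12 mo, and 7.96 and 7.46 at 21 mo. The 21 mo arrays and 12 mo A were alike and low, and the fitted difference was -3.001 (SE 0.72, adjusted p = 0.085 by limma). The flavoprotein Sdha and the membrane anchors Sdhc and Sdhd had positive differences of 0.32, 0.91 and 0.33, with SEs of 0.20, 0.66 and 0.91. In each of these 3 genes both 21 mo arrays lay above both 2 mo arrays, and 12 mo B was the lowest of the 8 WT HSC arrays.

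In complex III the small subunit Uqcrq had the most negative difference of the 86 genes, -3.14, with an SE of 1.07 (adjusted p = 0.167 by limma). It read 9.30 and 8.35 at 2 mo, 8.26 and 7.84 at 6 mo, 5.09 and 8.66 at 12 mo, and 6.21 and 5.24 at 21 mo, so the 12 mo arrays spanned the range of all ages. Cyc1 of this complex fell, as given above, while Uqcrc1, Uqcrfs1 and Uqcrc2 were steadier. Uqcrc1 stood at 8.28 and 8.48 at 2 mo and 8.84 and 8.46 at 21 mo, the Rieske iron-sulfur protein Uqcrfs1 had a fitted difference of 0.31 (SE 0.42), and Uqcrc2 one of -0.51 (SE 0.14, adjusted p = 0.11 by limma). Cycs, cytochrome c itself, read 12.57 and 12.34 at 2 mo and 11.89 and 11.64 at 21 mo, a fitted difference of -0.78 (SE 0.41).

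Complex IV divided by the kind of subunit. All 10 subunits of general use had a negative difference with age, with a median of -0.999, and in 9 of them both 21 mo arrays lay below both 2 mo arrays (49.4% of all genes), though none passed the test. Cox4i1, a regulatory subunit, read 12.33 and 12.45 at 2 mo, 12.34 and 11.95 at 6 mo, 10.82 and 12.12 at 12 mo, and 11.17 and 10.76 at 21 mo. Here too 12 mo B sat with the young arrays and 12 mo A with the old ones. The fitted differences were -1.49 for Cox4i1 (SE 0.40), -1.88 for Cox5b (SE 0.58), -1.57 for Cox6a1 (SE 0.50), -1.13 for Ndufa4 (SE 0.61), -1.01 for Cox6b1 (SE 0.50), -0.98 for Cox7a2 (SE 0.47) and -0.52 for Cox8a (SE 0.10, adjusted p = 0.054 by limma). Smaller ones were those of Cox7c (-0.35), Cox5a (-0.29) and Cox6c (-0.23), and Cox7c alone had overlapping arrays.

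The isoforms used in other tissues gave little signal. Cox6a2, Cox7a1 and Cox8b, the isoforms of heart and skeletal muscle, Cox4i2 and Cox8c stayed between 0.79 and 2.83 on all 14 arrays. Cox6b2, a testis isoform, read 3.84 and 4.25 at 2 mo and 2.59 to 3.24 on every other array. With Ndufaf3, Ndufaf5 and Ndufb1 they make up the 9 genes that did not reach 5 on 2 arrays. Cox7a2l, classed here as a factor for supercomplexes of complexes III and IV, lay between 11.94 and 12.39 on the 8 WT HSC arrays, a fitted difference of -0.05 (SE 0.11).

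Of the 17 genes of ATP synthase, 12 had a negative difference with age (67.3% of all genes), with a median of -0.10. Both 21 mo arrays lay below both 2 mo arrays in 6 of them (49.4% of all genes) and above in 5 (21.1%). In the catalytic F1 part of the enzyme, the subunits alpha (Atp5a1) and gamma (Atp5c1) had differences of 0.56 (SE 0.30) and 0.73 (SE 0.39), beta (Atp5b) -0.06 (SE 0.60), delta (Atp5d) -1.69 (SE 0.46) and epsilon (Atp5e) -0.64 (SE 0.71). Atp5d read 11.52 and 11.96 at 2 mo, 11.30 and 10.76 at 6 mo, 10.10 and 11.51 at 12 mo, and 9.99 and 9.87 at 21 mo. Atp5o, which ties F1 to the stalk, had a difference of -0.04 (SE 0.49). The genes Atp5g1, Atp5g2 and Atp5g3 encode the same mature protein, subunit c of the rotating ring, and their fitted differences were -1.66 (SE 0.37, adjusted p = 0.073 by limma), -0.16 (SE 0.23) and 0.43 (SE 0.21). Atp5g1 read 9.34 and 8.65 at 2 mo and 7.52 and 7.16 at 21 mo, Atp5g2 8.90 and 9.16 and then 8.99 and 8.62, and Atp5g3 12.60 and 12.501 and then 13.10 and 12.79. Both 21 mo arrays were thus below the 2 mo arrays for the first, overlapped them for the second and were above them for the third.

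**Figure D2:**
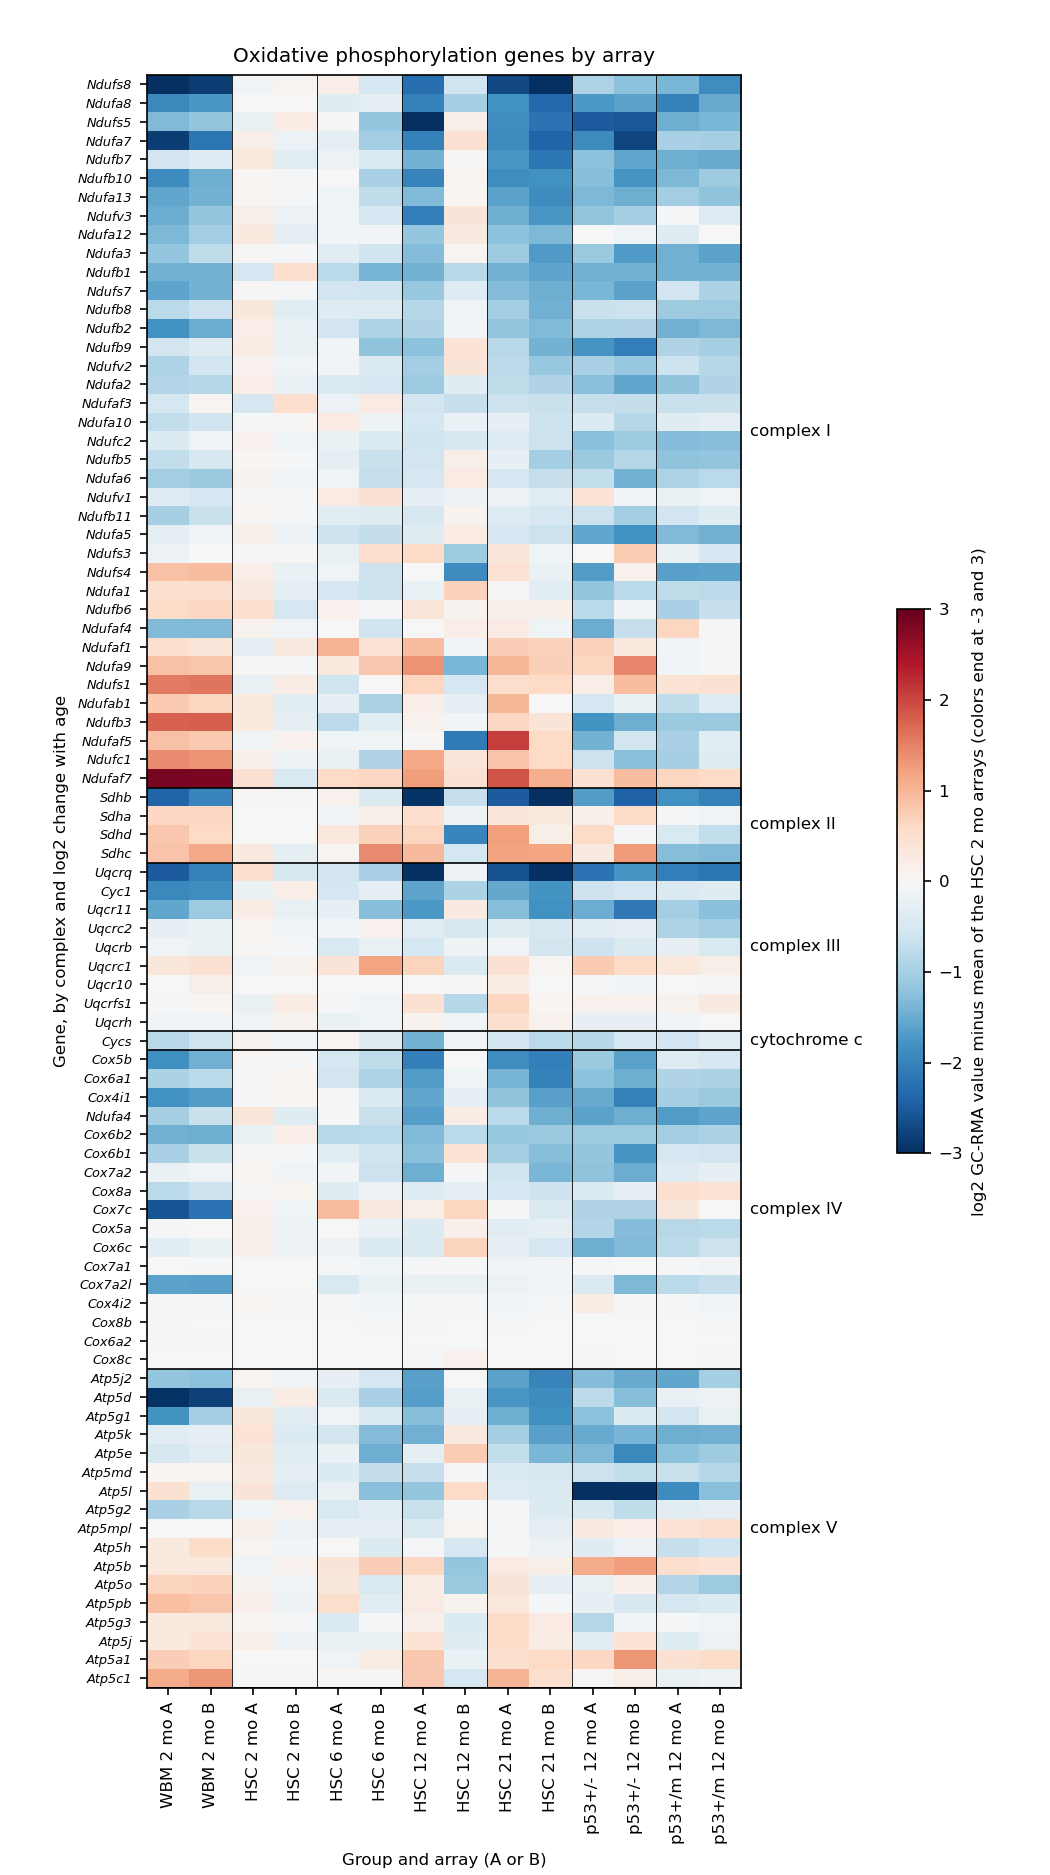
The map gives each of the 86 genes (rows, by complex and by log2 change with age within it) on the 14 arrays (columns) as its log2 value minus its mean on the 2 mo HSC arrays, blue below, red above, with colors ending at -3 and 3. Column 12 mo A resembles the 21 mo columns and column 12 mo B the 2 mo columns, and Ndufs8, Ndufa8 and Cyc1 are dark blue or blue at 21 mo and in WBM.

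From one age to the next, the median step of the 86 genes was -0.30 between 2 and 6 mo (67 genes negative), -0.09 between 6 and 12 mo (48 negative) and -0.08 between 12 and 21 mo (57 negative), and these means include the divided 12 mo arrays. Markers of several cell types moved on the same arrays, and over all genes 1.45% rose and 2.03% fell. Of the 8 HSC markers, 6 had a positive difference and 2 a negative one, with a median of 1.11, and 1 rose (Hlf, 1.52). All 6 B lineage markers had a negative difference, as had 67.3% of all genes, with a median of -0.07, and 1 fell (Cd79b, -3.40). The B lineage markers other than Cd79b had group means of 1.76 to 3.39 in HSC, which are low signals. Markers of mature myeloid cells moved as well. The mean of the 10 neutrophil markers was 5.62 and 5.14 at 2 mo, 3.84 and 4.40 at 6 mo, 5.03 and 5.68 at 12 mo, and 7.05 and 6.04 at 21 mo, and 2 of them rose (Lcn2 and Mmp8). The mean of the 6 monocyte markers was 6.37 and 6.11, 6.32 and 6.33, 6.89 and 6.23, and 8.10 and 8.60, and 3 rose (Ly86, Csf1r and Ccr2). Of the markers of early neutrophil precursors, Mpo stood at a mean of 2.56 at 2 mo and 4.70 at 21 mo and Prtn3 at 8.41 and 9.28, neither past the test, and Elane at 2.22 and 2.27. The part of any of these cell types in the lower values at 21 mo was not tested. Of the 6 proliferation markers, 1 fell (Mki67, by 1.02 on the log2 scale), and the others, which did not pass, had differences of -0.98 for Cdk1, -0.77 for Ccna2, -0.09 for Top2a, 0.40 for Mcm5 and 0.83 for Pcna.

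The promoters of these genes are known to carry sites for NRF1, for GABP, an ETS factor, and for YY1. Among the RefSeq promoter windows (GRCm38.p6, 250 bases before to 50 after a start, 300 in all), 71 of the 86 genes were found, with 76 windows. The letters GCGCANGCG, a core of the NRF1 site, were present in 21 of the 76 windows (27.6%), against 10.6% of the windows of the genes on the arrays and 6.25% of all promoters. With 1 more C at the 3′ end of these letters, the shares were 22.4%, 7.96% and 4.6%. The ETS letters CCGGAAG were present in 18 (23.7%, against 14% and 8.86%) and the YY1 letters AAGATGG in 10 (13.2%, against 6.56% and 6.34%). Both strands were searched, and the ETS and YY1 letters can overlap where they share AAG. A match is a description of the letters and not a measured site. A pair of the genes that fell with age are shown with the 120 bases before their start, one with NRF1 letters at 2 places, which are in capitals, and one with none of the 3 motifs in that stretch, together with Ndufb3, which was lower in HSC than in WBM, and Cox7c, which was higher. Beyond the printed bases, the window of Ndufs8 held ETS letters. In that of Cox7c, YY1 letters ran across the end of the printed bases, and they are not in capitals.
Ndufa8, chr2:36049339-36049458 (minus strand): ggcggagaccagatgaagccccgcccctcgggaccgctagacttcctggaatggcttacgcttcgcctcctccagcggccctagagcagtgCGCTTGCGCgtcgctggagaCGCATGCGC
Ndufs8, chr19:3912775-3912894 (minus strand): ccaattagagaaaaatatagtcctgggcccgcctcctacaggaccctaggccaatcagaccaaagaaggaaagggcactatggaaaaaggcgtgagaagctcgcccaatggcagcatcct
Ndufb3, chr1:58586277-58586396 (plus strand): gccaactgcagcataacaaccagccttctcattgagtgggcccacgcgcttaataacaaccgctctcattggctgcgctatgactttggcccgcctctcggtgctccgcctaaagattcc
Cox7c, chr13:86046796-86046915 (minus strand): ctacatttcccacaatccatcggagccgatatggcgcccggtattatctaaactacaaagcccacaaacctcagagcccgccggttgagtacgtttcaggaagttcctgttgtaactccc

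**Figure D3:**
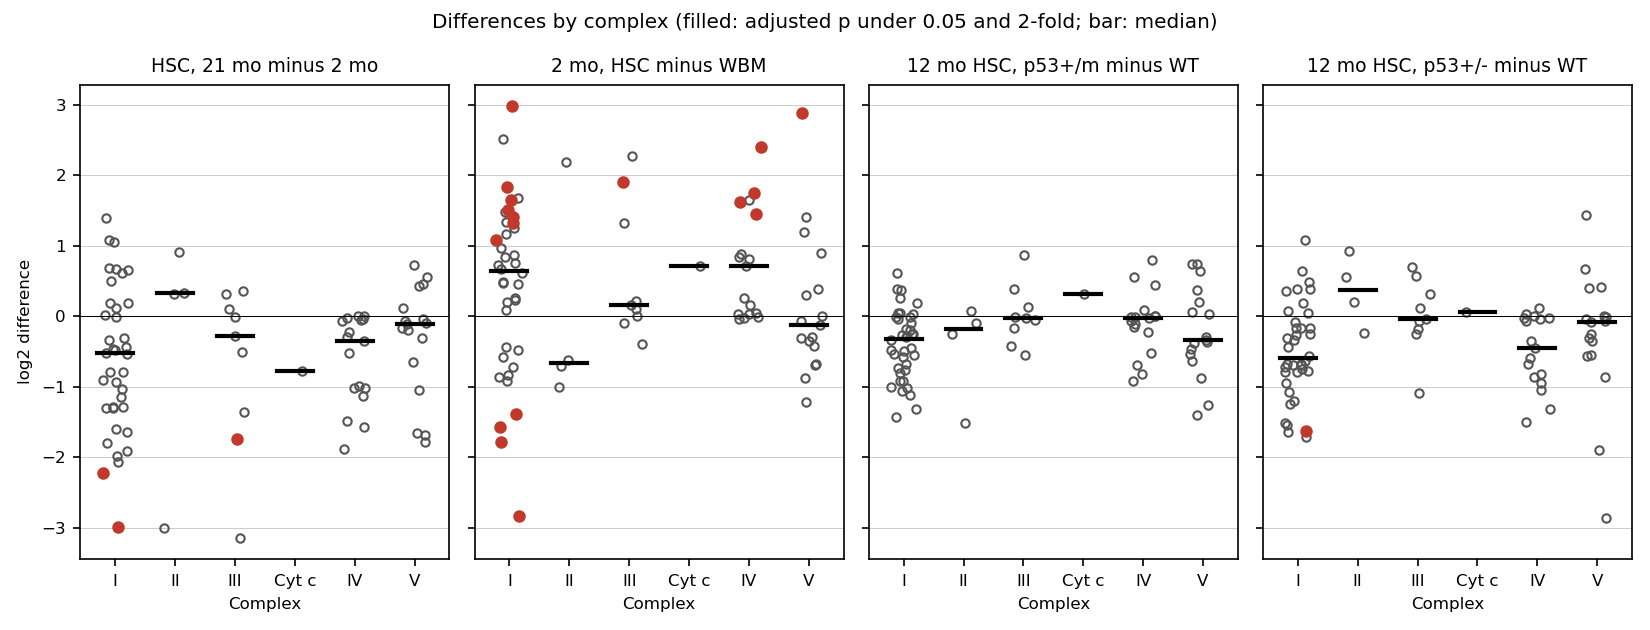
Each point is 1 of the 86 genes, placed by complex, with its log2 difference on the vertical axis in 4 comparisons; filled red points passed an adjusted p of 0.05 and 2-fold, and bars are medians. With age the medians were -0.52 for complex I, 0.33 for complex II, -0.27 for complex III, -0.35 for complex IV and -0.10 for complex V, and against WBM the largest number of filled points lies in complex I, on both sides of 0.

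The comparison of HSC with WBM at 2 mo sets stem cells against the marrow they live in. Of the 86 genes, 13 were higher in HSC and 4 were lower, against 13.3% and 10.5% of all genes, so the share of higher genes (13 of 86) was near the background and that of lower genes below it. Among genes at 5 or above on 2 arrays, 11 and 4 of 77 were called, against 23.5% and 17.8%. The difference was positive in 56 of the 86 genes (43.6% of all genes), with a median of 0.28 against -0.01, and in 51 of the 77 (55.3%). Both HSC arrays lay above both WBM arrays in 46 genes (32.3%) and below them in 26 (35.9%), and among the 77 in 43 (48.2%) and 22 (38.7%). At an unadjusted p of at most 0.05 with 2-fold, 19 were higher (15.7%) and 5 lower (12.6%). In the same fit all 10 neutrophil markers, 6 of 7 erythroid, 5 of 6 monocyte and 5 of 6 proliferation markers were lower in HSC, and their part in the differences below was not tested. Here limma was fitted to the means of the 5 WT groups, with the threshold used for age.

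The 13 genes came from complexes I, III, IV and V. Of these, 7 belonged to complex I: the core subunits Ndufs8 (2.98, SE 0.54) and Ndufs7 (1.504, SE 0.23), the accessory subunits Ndufa8 (1.84, SE 0.35), Ndufb2 (1.65, SE 0.30), Ndufb1 (1.41, SE 0.39, at low signal) and Ndufa6 (1.08, SE 0.29), and the assembly factor Ndufaf4 (1.33, SE 0.22). Cyc1 was the one of complex III (1.90, SE 0.25). It read 10.15 and 10.20 in WBM, against 11.87 and 12.28 in HSC, so the groups lay far apart relative to their spread. Ndufs8 read 8.55 and 8.83 in WBM and Ndufa8 8.29 and 8.49, close to the 21 mo HSC values given above. The comparisons with WBM and with age share the 2 mo HSC arrays.

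In complex IV, Cox7c, a small subunit, read 7.28 and 7.65 in WBM and 9.996 and 9.73 in HSC of 2 mo, and no HSC array of any age or genotype was below 8.96. The difference was 2.40 (SE 0.30, adjusted p = 0.0027 by limma). Cox7a2l read 10.78 and 10.75 in WBM and 12.39 on both HSC arrays, a difference of 1.63 (SE 0.08, adjusted p = 5.5e-05 by limma), and its other 2 probe sets passed as well (1.37 and 1.495). Cox4i1 (1.74, SE 0.42) and Cox6b2 (1.44, SE 0.19) also passed, the latter at low signal. All 10 subunits of general use had a positive difference, with a median of 0.83. In complex V, Atp5d read 8.77 and 8.94 in WBM and 11.52 and 11.96 in HSC, the largest difference outside complex I (2.88, SE 0.46, adjusted p = 0.0068 by limma). The other members of complex V differed less, and 11 of its 17 had a negative difference.

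The 4 genes that were lower in HSC all belonged to complex I. Ndufb3, an accessory subunit of the membrane arm, read 10.52 and 10.56 in WBM, 9.06 and 8.46 in HSC of 2 mo, and 6.97 to 9.39 on all HSC arrays. The difference was -1.78 (SE 0.24, adjusted p = 0.0033 by limma). Ndufs1, the largest core subunit, read 10.37 and 10.41 in WBM and 8.58 and 9.04 in HSC (-1.58, SE 0.41), Ndufc1 11.06 and 11.01 against 9.82 and 9.49 (-1.38, SE 0.32), and Ndufaf7 5.91 and 5.88 against 3.52 and 2.61 (-2.83, SE 0.42). Ndufaf7 reached the level of 5 through WBM alone, so its place among the 77 genes rests on that group, and the size of its difference rests on low HSC signals. In all 4 genes the groups did not overlap. Complex II had no called gene, but 3 of its 4 genes had a negative difference and Sdhb a positive one (2.19, SE 0.71, adjusted p = 0.080 by limma).

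Leaving out 1 array of either group left 7 to 9 genes higher and 2 or 3 lower, and Ndufb3, Ndufaf7, Ndufaf4, Ndufs7, Cyc1, Cox7c, Cox7a2l, Cox6b2 and Atp5d were called in every one of these fits. Without both 12 mo WT arrays, which enter only through the spread, 23 were higher and 5 lower (15.1% and 12.2% of all genes). Of the 8 genes called in the main fit that had several probe sets, 4 were called on all of them. With the mean of a gene's probe sets, Ndufaf4 was not called.

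**Figure D4:**
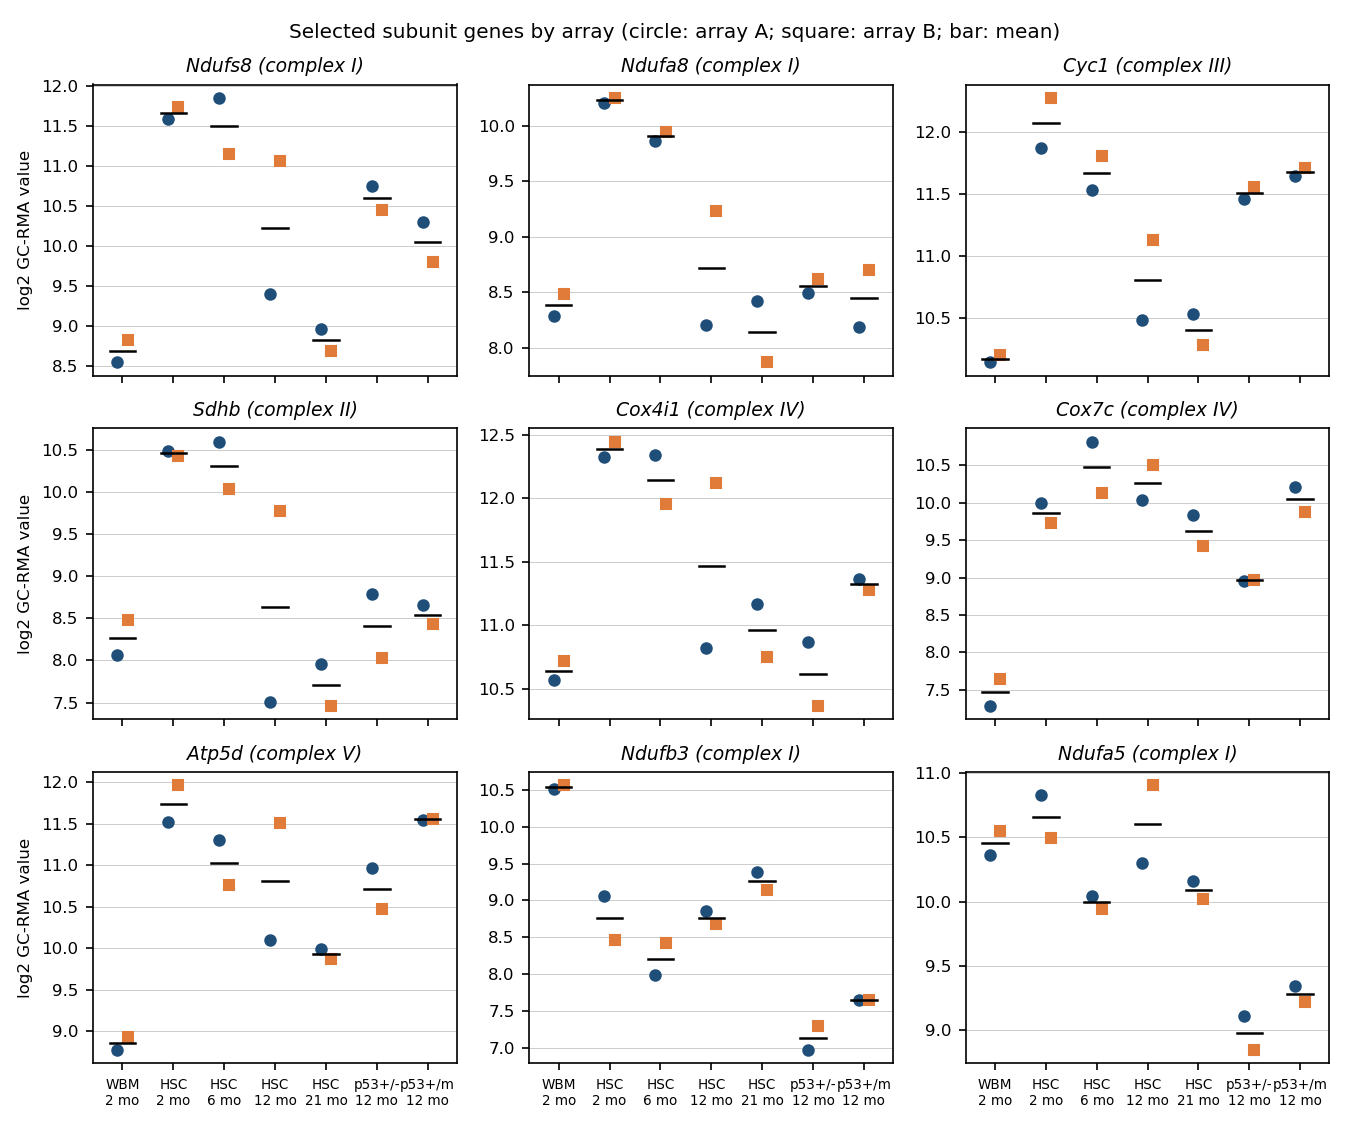
The 9 panels give the log2 values of Ndufs8, Ndufa8, Cyc1, Sdhb, Cox4i1, Cox7c, Atp5d, Ndufb3 and Ndufa5 on array A (circle) and array B (square) of each group, with the mean as a bar and a vertical axis of its own for each gene. Ndufs8, Ndufa8, Cyc1, Sdhb and Cox4i1 are low at 21 mo and in WBM, Ndufb3 is high in WBM, and Ndufa5 is low in p53+/- (9.11 and 8.85) and p53+/m HSC (9.34 and 9.22).

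The genotypes were compared at 12 mo, to ask whether altered p53 dose or activity changes the state of HSC of one age. With group means over the 12 HSC arrays, 0 of the 86 genes passed for p53+/m against WT HSC (0.137% of all genes were higher and 0.307% lower), and at an unadjusted p of at most 0.05 with 2-fold, 0 were higher and 8 lower (1.44% and 3.04%). For p53+/- against WT HSC, 1 gene fell, Ndufa5 (0.0807% and 0.113% of all genes), and at an unadjusted p, 1 was higher and 10 lower (0.888% and 2.21%). In each comparison 61 of the 86 genes had a negative difference, with medians of -0.21 and -0.25, against 57.7% and 65.8% of all genes with medians of -0.01 and -0.02. Both arrays of the genotype lay below both WT arrays in 25 genes for p53+/- (22.1%) and 23 for p53+/m HSC (16.4%), and above them in 4 for each (7.79% and 10.7%). Among genes at 5 or above on 2 arrays, they lay below in 24 of 77 for p53+/- HSC, against 1501 of 6788. For p53+/m HSC they lay below in 23 of 77, against 1775 of 6788. They lay above in 4 of 77 for each, against 815 and 1045 of 6788. The medians there were -0.33 against -0.06 for p53+/- and -0.25 against -0.09 for p53+/m HSC. With 12 mo A left out the median of the 86 genes was -0.59 for p53+/- and -0.47 for p53+/m HSC, and with 12 mo B left out it was -0.10 for p53+/- and -0.01 for p53+/m HSC. Markers of other cells moved in the same comparisons, though none passed. In p53+/- HSC the 10 neutrophil markers were all negative with a median of -0.87 (7 with both arrays lower) and the 6 megakaryocyte markers all negative with a median of -1.11 (5 with both arrays lower). In p53+/m HSC 8 of 10 neutrophil markers were negative with a median of -0.44 and 5 of 6 megakaryocyte markers with a median of -0.46. Their part in the differences was not tested. The 2 comparisons share the WT arrays.

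Ndufa5 encodes an accessory subunit of the matrix arm of complex I and lies at chr6:24518662-24527690. It read 10.30 and 10.90 in WT, 9.11 and 8.85 in p53+/- and 9.34 and 9.22 in p53+/m HSC at 12 mo, and 9.94 to 10.90 on the 8 WT HSC arrays. Every array of both genotypes was below every WT HSC array. The difference was -1.62 (SE 0.21, adjusted p = 0.0487 by limma) for p53+/- and -1.32 (SE 0.21, adjusted p = 0.0525) for p53+/m. Its second probe set had a difference of -0.42 in p53+/- HSC, and the call was lost with either p53+/- array left out.

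Of the 27 accessory subunits of complex I, 24 had a negative difference in p53+/- HSC (median -0.68) and 23 in p53+/m HSC (median -0.55), while the 6 core subunits had medians of 0.37 and -0.05. Ndufb3 read 8.86 and 8.67 in WT, 6.97 and 7.29 in p53+/- and 7.65 on both arrays in p53+/m HSC, differences of -1.64 (SE 0.23, adjusted p = 0.077 by limma) and -1.12 (SE 0.23, adjusted p = 0.113). Ndufc1 read 10.79 and 10.02 in WT, 9.01 and 8.40 in p53+/- and 8.66 and 9.30 in p53+/m HSC, and neither difference (-1.70 and -1.43, SE 0.38) passed. Both genes had non-overlapping arrays in each comparison.

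In p53+/- HSC 16 genes and in p53+/m HSC 15 lay below all 8 WT HSC arrays on both of their arrays, against 5.06% and 5.54% of all genes and 6.72% and 9.62% of those at 5 or above on 2 arrays. Those of p53+/- HSC were Ndufa1, Ndufa2, Ndufa5, Ndufa6, Ndufb3, Ndufb9, Ndufb11, Ndufc2, Ndufaf4, Uqcr10, Uqcrh, Cox5a, Cox6a2, Cox6c, Cox7c and Atp5l. Of these, Cox6a2 did not reach 5 on 2 arrays, so its place rests on low signal and it lies outside the genes of the second pair of shares. Those of p53+/m HSC were Ndufa1, Ndufa5, Ndufa6, Ndufb2, Ndufb3, Ndufb5, Ndufb6, Ndufc2, Sdhc, Uqcrc2, Cox5a, Cox6c, Cox7a2l, Atp5h and Atp5pb. In each genotype 2 genes lay above all 8, Atp5b and Atp5mpl in p53+/- and Cox8a and Atp5mpl in p53+/m HSC. The shares above were 2.57% and 4.09% of all genes, and 3.74% and 5.13% of those at 5 or above on 2 arrays. This reading does not rest on the 12 mo WT arrays alone, although it does include them.

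The most negative difference in p53+/- HSC was that of Atp5l, subunit g of ATP synthase, which did not pass. It read 4.25 and 4.26 there, 5.53 and 6.18 in p53+/m and 6.24 and 7.99 in WT HSC at 12 mo, a difference of -2.86 (SE 0.61, adjusted p = 0.183 by limma). Both p53+/- arrays were close together and below all other arrays of the series. The most positive was that of Atp5b, the catalytic beta subunit, which read 12.86 and 12.99 in p53+/- and 12.38 and 10.60 in WT HSC, 1.44 (SE 0.50, adjusted p = 0.448). In p53+/m HSC they were those of Sdhc, -1.51 (SE 0.62, adjusted p = 0.467), which read 6.83 and 6.78 against 9.06 and 7.57, and of Cyc1, 0.87 (SE 0.23, adjusted p = 0.192), which read 11.65 and 11.71 against 10.49 and 11.13. Cyc1 in p53+/- HSC (11.46 and 11.56) was also above both WT arrays of its age, and no array of either genotype was as low as those of 21 mo. Ndufs8 read 10.75 and 10.45 in p53+/- and 10.31 and 9.80 in p53+/m HSC, between the WT arrays of 12 mo, while Ndufa8 read 8.49 and 8.62 and 8.19 and 8.71, and Sdhb 8.78 and 8.03 and 8.65 and 8.43.

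The counts turned on which 12 mo WT array was the control. With 12 mo A left out, 20 genes fell and 3 rose in p53+/- HSC (2.44% and 2.22% of all genes), and 5 fell and 1 rose in p53+/m HSC (1.38% and 1.07%). With 12 mo B left out, 1 fell and 0 rose in p53+/- HSC (1.09% and 0.339%), and 1 fell and 3 rose in p53+/m HSC (3.07% and 1.53%). In these fits the lone WT array was assumed to vary like the other groups. Ndufa5 was lower in all 4 of them.

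The comparison of p53+/m with p53+/- HSC uses neither 12 mo WT array except through the spread. Of the 86 genes, 0 passed by limma, 3 were higher and 1 lower at an unadjusted p of at most 0.05 with 2-fold (1.71% and 1.86% of all genes), and over all genes 0.0888% rose and 0.129% fell. The difference was negative in 36 genes (37.1%), both p53+/m arrays lay above both p53+/- arrays in 35 (19.7%) and below them in 19 (16.4%). Among the 77 genes 0 passed (0.162% and 0.221%), 34 were negative (50.8%), and the arrays lay wholly above in 32 (25.8%) and below in 19 (27.1%). The general subunits of complex IV were the most even group, with 9 of 10 positive, a median of 0.77, and both p53+/m arrays above both p53+/- arrays in 9, although none of them passed. Cox7c read 10.21 and 9.88 in p53+/m and 8.96 and 8.97 in p53+/- HSC (1.08, SE 0.28, adjusted p = 0.213 by limma). Cox8a, the liver-type subunit 8 that most tissues use, read 9.66 and 9.60 in p53+/m, 8.73 and 8.88 in p53+/-, and 8.78 and 8.90 in WT HSC. Its differences in p53+/m HSC, 0.83 from p53+/- (SE 0.09, adjusted p = 0.030) and 0.80 from WT (SE 0.09, adjusted p = 0.023), passed the p threshold and were under 2-fold. The largest differences were those of Sdhc, -2.06 (SE 0.62, adjusted p = 0.301), and Atp5l, 1.60 (SE 0.61, adjusted p = 0.457). The mean of the 10 neutrophil markers was 4.51 and 5.36 in p53+/m and 3.98 and 3.76 in p53+/- HSC, with 9 of 10 positive, and its part in these differences was not tested.

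Genes that work beside the respiratory chain were read from lists of the same kind. The glycolysis list also held glucose and lactate transporters and the kinase genes Pdk1 to Pdk4. In it, 14 of 20 genes had a positive difference with age (median 0.56), with both 21 mo arrays above both 2 mo arrays in all 14, against 21.1% of all genes and 36% of those at 5 or above on 2 arrays. At an unadjusted p of at most 0.05 with 2-fold, 6 were higher and 0 lower (6.68% and 7.72% of all genes). Hk2, which phosphorylates glucose, was the 1 that rose, by 1.502 on the log2 scale (adjusted p = 0.037 by limma). In the TCA cycle list, which also held pyruvate dehydrogenase genes such as Pdhb, Idh3g (-1.30) and Pdhb (-1.03) fell, and 9 of 17 genes had a positive difference. By the same test 1.45% of all genes rose and 2.03% fell. None of the 24 assembly factors outside the rule, 16 genes of mitochondrial biogenesis or 13 carriers passed the age test. At an unadjusted p of at most 0.05 with 2-fold 1 and 3, 1 and 2, and 0 and 0 of them were higher and lower. Over all genes the shares were 6.68% and 7.72%. Of the 16 biogenesis genes, 8 had a positive and 8 a negative difference with age, with a median of -0.008. Ppargc1a, a coactivator of mitochondrial biogenesis, stood at a mean of 7.25 at 2 mo and 4.99 at 21 mo (adjusted p = 0.11 by limma), and Nrf1, whose protein binds the letters above, at 9.55 and 7.46 (adjusted p = 0.15). The genes of the other factors named with the promoters went the other way, Gabpa (0.55) and Gabpb1 (1.39) of GABP and Yy1 (0.69), and none passed.

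Against WBM, Aldoc (4.90), Ldhb (4.48), Slc2a1 (3.77) and Pdk4 (2.81) were among 6 of the 20 genes of the glycolysis list that were higher in HSC, and the lactate transporter Slc16a1 was lower (-3.59). Over all genes 13.3% were higher and 10.5% lower, and 23.5% and 17.8% of those at 5 or above on 2 arrays. Of the 24 assembly factors, 5 were higher, among them Ttc19 (2.52), Cox19 (2.43), Sco2 (2.32) and Surf1 (2.19), and Coa5 was lower (-1.51). Ppargc1a (4.17) and Tfb2m (2.17) were higher and Tfb1m lower (-2.14), as were Idh3a (-1.65) and Fh1 (-1.01), while Idh3g, Pdhb and Idh3b were higher in HSC. Of the carriers, the ADP/ATP translocase Slc25a4 (1.64) and Slc25a20 (1.31) were higher. In the genotypes, Cox15, which makes heme A for complex IV, was the only gene of these lists that passed, and it fell in p53+/m (-1.06) and in p53+/- HSC (-1.03). Over all genes 0.307% and 0.113% fell in these comparisons.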

How the data were processed

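RNA of 14 samples in 7 groups of 2 was measured on MOE430A arrays. Images were read by the authors in MAS 5.0, and they deposited log2 values from GC-RMA, which corrects background by the GC content of probes and normalizes between arrays. No source used here states its version or if 1 normalization covered all arrays. Medians of the arrays were 3.93 to 4.10, and values were used as given. Probe sets were named by the platform annotation supplied (20380 with 1 symbol, 691 with several, 1555 with none; 64 controls left out), which matched all 86 genes to RefSeq (GRCm38.p6). Tests used limma 3.58.1 in R 4.3.3 (lmFit, eBayes) with Benjamini-Hochberg adjustment over 22626 probe sets. Precision is limited by having 2 arrays in a group.

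The members, the gene lists (assembly factors, TCA cycle, glycolysis, mitochondrial biogenesis, carriers, and markers of HSC, erythroid, neutrophil, monocyte, B lineage, T and NK, megakaryocyte and proliferating cells) and the tests were chosen with earlier results of these data known. Genes named are all that passed (up to 10 in each direction), the largest rise and fall in each comparison, core subunits, paralogues and up to 4 passing genes of each list; the part of that rule on highest and lowest levels was not used, since levels of different probe sets are not comparable. Probe sets whose name marks shared probes (suffix s or x) were used for 19 genes, among them Cox7c, Atp5d, Cox5b, Cox8a and Uqcrq, whose signal may include near-identical copies. Each procedure was run on simulated data, but the outcome is not given here, so no conclusion on the calls is drawn from it. In particular, it is no evidence on how the calls behave when the arrays of a group differ widely. The alternatives were to leave out single arrays and to change the trend, the arrays in the model, the normalization, the filter, the threshold and the choice of probe sets. A and B mark no pairs of arrays: over 21 pairs of groups the correlation of the A minus B differences ran from -0.31 to 0.16 and was above 0.1 in 2.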

Additional observations from a re-analysis of the deposited data

How the results depend on the processing

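Of 192 values of the counts and medians under alternative settings, 146 stayed near the reported value (a count within 1.5 times it, a median within 1 SD between arrays) and 46 moved, and of 370 values of named genes, 292 kept their side of the threshold, 64 lost it, 14 gained it and 0 changed sign. With age (0 higher, 3 lower), leaving out 1 array gave 0 to 24 lower; a filter on low values gave 15 lower, an unadjusted p 22 lower and 1 higher (Ndufaf7), all 14 arrays 14 lower and 1 higher, a straight line 5 lower, group means 0 lower, and leaving out both 12 mo arrays 21 lower. Against WBM (13 higher, 4 lower), leaving out 1 array gave 7 to 9 higher and 2 to 3 lower, and leaving out both 12 mo WT arrays, an alternative chosen after seeing the data, 23 higher. For p53+/m against WT (0 and 0), leaving out 1 array gave 0 to 3 higher and 0 to 5 lower, no fold limit 1 higher (Cox8a), an unadjusted p 8 lower, and the mean of a gene's probe sets and all 14 arrays 1 lower each (Ndufa5). For p53+/- against WT (0 higher, 1 lower), leaving out 1 array gave 0 to 3 higher and 0 to 20 lower, quantile normalization and the filter 0 lower, an unadjusted p 10 lower and 1 higher, and all 14 arrays 2 lower. For p53+/m against p53+/- (0 and 0), no fold limit gave 1 higher and an unadjusted p 3 higher and 1 lower, and the median of 0.09 became 0.16 with the filter and 0.0285 to 0.106 without 1 array. The cause of these shifts was not tested.

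With the replicate letter as a block, 1 gene (Cyc1) fell with age and 0 in p53+/- HSC, and the pairing check above gave no ground for the block. Of the 46 genes with several probe sets, these had the same sign in 33 with age and 30 against WBM. The 2 arrays of a group, and the 9 genes that never reached 5 on 2 arrays, limit what can be seen.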

Other observations

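ND5, a core subunit of complex I that is encoded in mitochondrial DNA and was chosen after its values were seen, read 12.12 and 12.64 at 2 mo, 12.61 and 12.82 at 6 mo, 13.44 and 12.92 at 12 mo, and 13.20 and 12.99 at 21 mo. It read 11.93 and 12.67 in WBM, 13.43 and 13.67 in p53+/- and 13.83 and 13.67 in p53+/m HSC. Both 21 mo arrays were above both 2 mo arrays, and the fitted difference was 0.75 (SE 0.22, adjusted p = 0.130 by limma), while the nuclear core subunits of complex I other than Ndufs1 had differences below 0.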
